A study of Mus musculus with 16 samples.

Results

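The genes described here are 10 markers of type 2 conventional dendritic cells (cDC2s) of the spleen and genes tied to NOTCH2 signalling in them, namely Sirpa, Cd209a, Esam, Cd4, Clec4a4, Notch2, Dtx1, Clec12a, Clec10a and Mgl2. They were taken by name, as markers known from these cells, with earlier results of these data known, and all 10 were listed among the 17721 genes of the table for conventional dendritic cells (cDCs) and the 17128 of the table for plasmacytoid dendritic cells (pDCs). The 16 RNA-seq libraries came from dendritic cells (DCs) sorted from the spleens of C57BL/6 mice aged 6 to 8 weeks, and were made to learn what loss of the nuclear protein TRIM33 does to them. The WT mice were Trim33 fl/fl, and the cKO mice were Trim33 fl/fl Itgax-Cre, in which Cre under the Itgax (CD11c) promoter removes Trim33 in CD11c-expressing cells, so both genotypes carried the floxed alleles. The groups were WT and cKO pDCs (3 libraries each), WT and cKO cDC1s (2 each) and WT and cKO cDC2s (3 each). In the study's gates pDCs were CD11c+ SiglecH+, cDC1s CD11c+ SiglecH- CD24+ CD172a- and cDC2s CD11c+ SiglecH- CD24- CD172a+, after depletion of other lineages (T and B cells, erythroid cells and neutrophils). CD172a is the protein of Sirpa, so the Sirpa difference between cDC2s and cDC1s was set by the sort. Each library pooled the cells of 4 to 5 WT mice or of 10 to 11 cKO mice, so p values measure the spread between pools, and the size of a pool cannot be told apart from the genotype.

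Spleen cDC2s are antigen-presenting cells that mainly prime CD4+ T cells. They fall into a type with high ESAM and CD4, which sits at the marginal zone and depends on NOTCH2 signalling through RBPJ, and a type with high CLEC12A, which carries more monocyte-related genes. On binding a Delta or Jagged ligand a Notch receptor is cut, and its intracellular part joins RBPJ on DNA to switch on targets such as Dtx1 in lymphoid and dendritic cells. Of the genes below, Esam, Cd4, Clec4a4 and Dtx1 were grouped as belonging to the ESAM-high type, and Clec12a, Clec10a, Mgl2 and Cd209a to the CLEC12A-high type. Sirpa and Notch2 were placed in neither group.

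Values are in TPM, an estimate of a gene's share of all transcripts that takes account of transcript length and of the sum of each library. Estimated depths were 18.1 to 20.2 M reads, so that 3 reads of a transcript of 1500 bases were worth 0.191 to 0.248 TPM, a floor for counting error only. Replicates correlated at r = 0.981 to 0.994 over genes in 14 pairs, and 0 pairs were identical. Trim33 was lower in every cKO library than in every WT library of its cell type, with log2 fold changes of −1.17 in cDC2s, −1.02 in cDC1s (called in both) and −0.68 in pDCs (limma adjusted p = 0.0301, and 0.00361 with the replicate number as a block). The summed level of 10 cDC1 markers was 5157 to 5789 TPM in cDC1 libraries and 271.0 to 402.5 TPM in cDC2 libraries. In pDC libraries it was 3858 to 4435 TPM, of which Irf8 gave 3410 to 3933. The 8 pDC markers summed to 17074 to 19055 TPM in pDC libraries and to 130.1 to 257.6 TPM in cDC libraries. A gene is called here when its limma adjusted p (Benjamini-Hochberg) was no higher than 0.01 and its log2 fold change on the log2(TPM + 1) scale was 0.5 or more in either direction. Counts of listed genes with an unadjusted p under 0.05 are also given. The matching share of all genes was not taken, so those counts are descriptions only. Levels in pDCs and cDCs come from separately normalized tables and were not tested against each other.

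Promoter sequences were on hand for 5 of the 10 genes (Cd209a, Clec12a, Mgl2, Dtx1 and Notch2), and those of Dtx1 and Clec12a are shown because Dtx1 fell in cKO cDC2s while Clec12a was higher there, short of a call, and because each holds the one searched motif that was found. They are the 250 bases before the start used by the RefSeq promoter table (GRCm38.p6), written 5′ to 3′ on the gene's strand. That start lies 461 bases inside the gene span from its outer end in Clec12a and 198 bases inside it in Dtx1, so the windows overlap the spans given at the end. In them capitals mark a match to GAGGAAG, a sequence that the DC factor PU.1 can bind, on either strand. The Dtx1 sequence is chr5:120711670-120711919 on the minus strand, and the Clec12a sequence is chr6:129349994-129350243 on the plus strand.
Dtx1: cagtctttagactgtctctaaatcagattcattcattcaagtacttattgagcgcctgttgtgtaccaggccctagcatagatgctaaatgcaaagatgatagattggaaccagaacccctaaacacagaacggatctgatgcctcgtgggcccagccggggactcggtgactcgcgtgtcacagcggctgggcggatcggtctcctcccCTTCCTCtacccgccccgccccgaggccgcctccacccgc
Clec12a: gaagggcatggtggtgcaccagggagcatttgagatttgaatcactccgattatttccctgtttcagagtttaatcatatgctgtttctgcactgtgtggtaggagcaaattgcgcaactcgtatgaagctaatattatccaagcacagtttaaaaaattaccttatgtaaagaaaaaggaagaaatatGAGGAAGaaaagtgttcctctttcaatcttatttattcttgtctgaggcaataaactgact
The match lies on the gene's own strand in Clec12a, from position −61 relative to that start, and on the opposite strand in Dtx1, from position −40. GAGGAAG is in 10.6% of 32851 mouse promoters of this length. The RBPJ sequence GTGGGAA, which is in 5.42% of them, and its shorter core TGGGAA, which is in 21.6% and lies within the longer one, were in 0 of the 5 windows on either strand.

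In WT cells 9 of the 10 genes were called between cDC2s and cDC1s, 8 of them higher in cDC2s. Of the 11411 genes tested 31.7% were called, 20.8% higher and 10.9% lower. The members were taken as known cDC2 markers and the Sirpa difference was set by the sort. These counts therefore describe the sorted cells and do not test the members. With median-of-ratios scaling, which sets the median of all genes near 0, 1715 genes were called higher and 1817 lower, in place of 2371 and 1241 as deposited, and the same number of members was called. As a description of the sort, Sirpa, an inhibitory receptor for CD47, had means of 484.7 ± 35.5 TPM (SD, n = 3) in WT cDC2s and 5.59 ± 2.60 TPM (SD, n = 2) in WT cDC1s. Clec4a4, the C-type lectin DCIR2, had a mean of 0.810 ± 0.269 TPM (SD, n = 2) in WT cDC1s, 0.225% of its WT cDC2 mean. Dtx1, an E3 ubiquitin ligase and Notch target, stood at 1.51 ± 0.177 TPM (SD, n = 2) in WT cDC1s, 0.509% of its WT cDC2 mean. Esam, an adhesion molecule of endothelial cells and DCs, showed a smaller gap, since WT cDC1s held 21.4% of the WT cDC2 level (log2 difference 2.14, SE 0.17). Clec12a, an inhibitory lectin that senses dying cells, went the other way and was 3.87 times as high in WT cDC1s as in WT cDC2s (log2 difference of cDC2s to cDC1s −1.96, SE 0.19). Notch2, the receptor, was the gene not called, at 63.1 ± 12.4 TPM (SD, n = 3) in WT cDC2s and 57.3 ± 9.78 TPM (SD, n = 2) in WT cDC1s. In cKO cells the same comparison also called 9 of the 10, with 8 higher, against 28.3% of all genes (13.8% higher and 14.5% lower). Clec12a (−1.10) lost its call without cKO cDC1 library 2, and Notch2 was again the gene without a call (log2 difference −0.56, adjusted p = 0.0479).

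**Figure D1:**
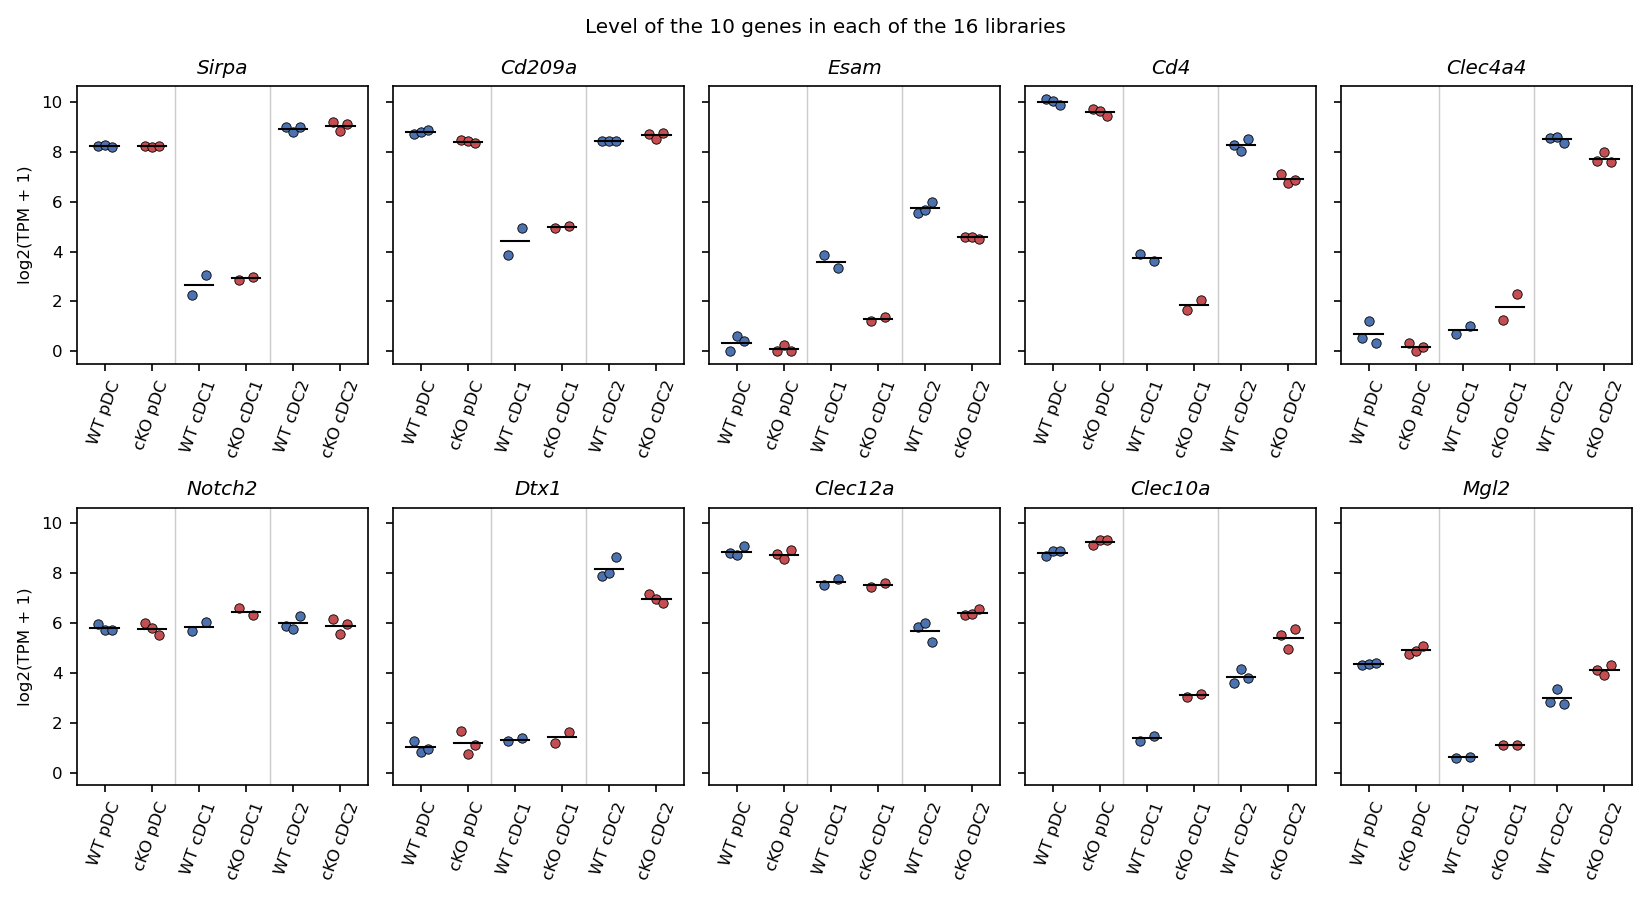
Level of each of the 10 genes as log2(TPM + 1) in all 16 libraries, with 1 point per library, WT in blue, cKO in red, and a black line at the group mean; grey lines separate the cell types, whose tables were normalized separately. Esam, Cd4 and Dtx1 are lower and Clec10a and Mgl2 higher in every cKO cDC2 library than in every WT one, and Notch2 lies between 45.4 and 96.3 TPM in every library.

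The order of the 6 groups differed from gene to gene. Cd4, the T cell coreceptor also carried by pDCs and many cDC2s, was highest in WT pDCs (939.6 to 1116 TPM), next in cKO pDCs, then in WT and cKO cDC2s, and lowest in cDC1s. Clec12a had its highest levels in pDCs (375.2 to 536.3 TPM), where WT and cKO libraries overlapped, then came cDC1s of both genotypes, which overlapped as well, then cKO cDC2s, and WT cDC2s were lowest. Clec10a and Mgl2, neighbouring genes for galactose-binding lectins (CD301a and CD301b), were both highest in cKO pDCs and lowest in WT cDC1s. Cd209a, a lectin of the DC-SIGN family, was in the same range in pDCs (321.7 to 463.5 TPM) and cDC2s (339.9 to 431.7 TPM) and far lower in cDC1s (13.7 to 31.2 TPM). Esam was not tested in pDCs, where it was listed at 0 in 3 of 6 libraries and at no more than 0.520 TPM in the others. Clec4a4 also fell under the filter on low values there, at 0 to 1.33 TPM.

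In cDC2s the genes of the ESAM-high type were lower in cKO libraries and those of the CLEC12A-high type were higher. Of the 10 genes 5 were called, Cd4, Esam and Dtx1 lower and Clec10a and Mgl2 higher, where 7.15% of all 11411 genes were called, 3.59% higher and 3.56% lower. Over all genes the calls were 410 higher and 406 lower, and 580 and 379 with median-of-ratios scaling. The WT and cKO libraries overlapped for Sirpa and Notch2 and not for the other members. The share of all genes without overlap was not taken, so the lack of overlap only describes single genes. The median log2 fold change was −1.18 over the 4 ESAM-high type genes and 0.93 over the 4 CLEC12A-high type genes, against −0.03 over all genes tested.

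Esam was at 45.4, 49.1 and 63.1 TPM in the WT cDC2 libraries and at 22.95, 23.2 and 21.7 TPM in the cKO ones. The cKO libraries lay close together at 43.1% of the WT mean, below all WT libraries (log2 fold change −1.17, SE 0.16, limma adjusted p = 0.00110).
Cd4 was at 308.4, 261.4 and 365.6 TPM in WT and at 135.0, 107.6 and 116.7 TPM in cKO libraries. It had the largest fall of the 10 genes in cDC2s, to 38.4% of the WT mean (log2 fold change −1.37, SE 0.15, limma adjusted p = 4.78e-04).
Dtx1 was at 234.9, 253.3 and 404.3 TPM in WT and at 141.6, 122.8 and 112.2 TPM in cKO libraries. WT library 3 stood apart as the highest, and the groups did not overlap (log2 fold change −1.202, SE 0.20, limma adjusted p = 0.00322).
Clec4a4 was at 372.7, 386.3 and 320.2 TPM in WT and at 195.5, 249.7 and 190.8 TPM in cKO libraries. Its groups were separate as well, but the difference was not called (log2 fold change −0.77, SE 0.23, limma adjusted p = 0.0400), and 15.7% of its 50-base stretches also occur in Clec4a2, a near relative, so reads could be shared between them. The fits without either cKO cDC1 library, which shift the shared estimate of the spread, called it (adjusted p down to 0.00861).

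Clec10a was at 11.1, 17.1 and 12.9 TPM in the WT cDC2 libraries and at 45.1, 29.9 and 53.1 TPM in the cKO ones. Every cKO library was above every WT library, with the cKO mean 3.12 times the WT mean (log2 fold change 1.55, SE 0.21, limma adjusted p = 0.00115).
Mgl2 was at 6.21, 9.30 and 5.74 TPM in WT and at 16.6, 14.1 and 19.2 TPM in cKO libraries. Again every cKO library was above every WT library (log2 fold change 1.14, SE 0.17, limma adjusted p = 0.00196).
Of the 50-base stretches of Mgl2 13.1% occur in other genes, Clec10a among them, and of those of Clec10a 9.02%, so their values are not fully separate.
Clec12a was at 56.4, 62.3 and 37.3 TPM in WT and at 80.0, 81.3 and 93.5 TPM in cKO libraries. WT library 3, the highest in Dtx1, was the lowest here, and the groups did not overlap, but the adjusted p missed the threshold (log2 fold change 0.73, SE 0.17, limma adjusted p = 0.0155).
Cd209a was at 345.0, 346.2 and 339.9 TPM in WT and at 415.5, 360.0 and 431.7 TPM in cKO libraries. The WT libraries were nearly level, and the cKO libraries were above them by a small amount that was not called (log2 fold change 0.22, limma adjusted p = 0.499).

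The receptor and the gate marker did not move with either group. Notch2 was at 58.8, 53.5 and 77.1 TPM in the WT cDC2 libraries and at 71.3, 46.5 and 60.9 TPM in the cKO ones. The groups overlapped widely (log2 fold change −0.09, SE 0.18, limma adjusted p = 0.774), with the sign turning in 2 of 10 fits that left out 1 library. Sirpa was at 509.5, 444.1 and 500.6 TPM in WT and at 582.3, 451.3 and 554.2 TPM in cKO libraries, also overlapping (log2 fold change 0.12, SE 0.18, limma adjusted p = 0.683). Without cKO cDC2 library 3 the calls fell from 5 to 3 of the 10 (Cd4, Esam and Clec10a), since Mgl2 (adjusted p = 0.0124) and Dtx1 (0.0189) then missed the threshold, and Dtx1 also missed it without cKO cDC2 library 2 (0.0126).

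**Figure D2:**
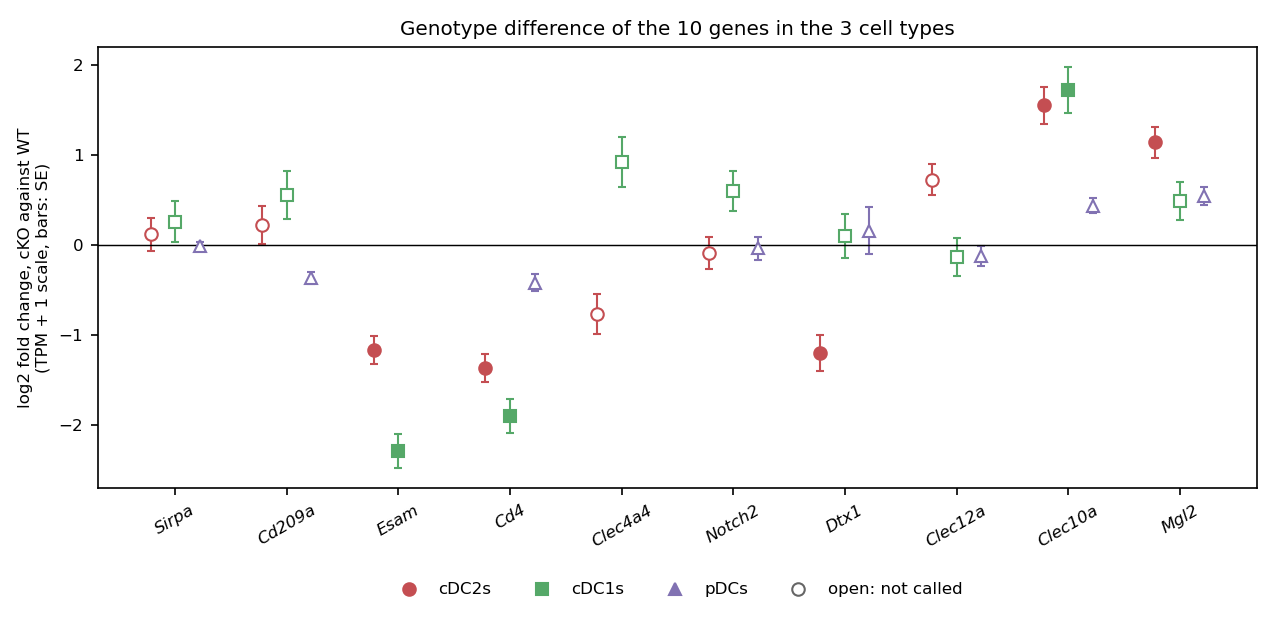
Log2 fold change of cKO against WT on the log2(TPM + 1) scale for each gene in cDC2s (circles), cDC1s (squares) and pDCs (triangles), with bars for the limma standard error and filled symbols for called genes. Esam and Cd4 are filled and below 0 in both cDC types, Clec10a is filled and above 0 in both, and Dtx1 is filled in cDC2s alone; Esam and Clec4a4 have no pDC value because they fell under the filter.

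The mean log2(TPM + 1) of the 4 ESAM-high type genes minus that of the 4 CLEC12A-high type genes gives a single value per library. In cDC2s it was 2.38, 2.08 and 2.82 in the WT libraries and 0.43, 0.64 and 0.10 in the cKO libraries. It thus stayed above 0 in all cKO cDC2 libraries while lying below the lowest WT value. In cDC1s, where Clec12a is high and Cd4, Clec4a4 and Dtx1 are low, it was −0.89 and −1.38 in WT and −2.79 and −2.38 in cKO libraries. In pDCs it was −4.91 to −4.53 in WT and −5.24 to −4.85 in cKO libraries, which overlap. The ratio of Esam to Clec12a in TPM was 0.788 to 1.69 in WT cDC2s and 0.232 to 0.287 in cKO cDC2s. In bulk libraries fewer cells of the ESAM-high type and less RNA of these genes per cell cannot be told apart. By flow cytometry of mice of these genotypes, the study reported a decrease of both ESAM+ CLEC12A- and CLEC12A+ cDC2s in cKO mice. The difference above is thus no measure of a loss confined to the ESAM-high type.

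**Figure D3:**
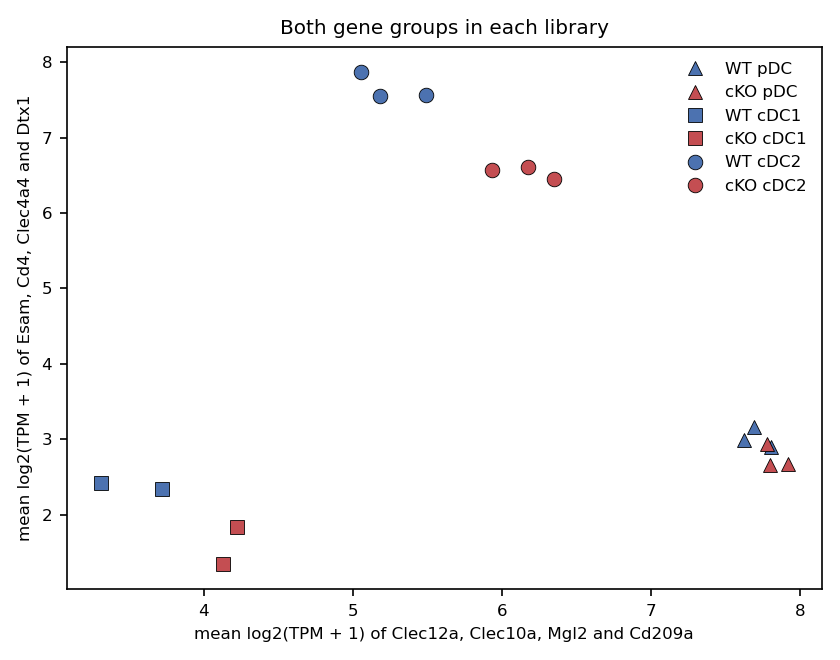
Mean log2(TPM + 1) of the 4 ESAM-high type genes (vertical) against that of the 4 CLEC12A-high type genes (horizontal), with 1 symbol per library, circles for cDC2s, squares for cDC1s, triangles for pDCs, WT in blue and cKO in red. The cKO cDC2 and cKO cDC1 libraries lie lower and farther right than the WT libraries of the same cells, and the pDC libraries lie apart from all cDC libraries.

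In cDC1s, which carry little of most of these genes, Esam and Cd4 were lower and Clec10a was higher in cKO libraries. These 3 of the 10 genes were called, where 22.4% of all genes were called in cDC1s, 15.8% higher and 6.56% lower, so the share of members called was close to that of all genes. The median over all genes was 0.17 on the log2 scale, and the fold changes below include that shift. With median-of-ratios scaling the median was 0.02, and 1068 genes were called higher and 1070 lower in place of 1806 and 749. Esam was at 13.5 and 9.06 TPM in WT and at 1.34 and 1.61 TPM in cKO cDC1 libraries. The cKO mean was 13.1% of the WT mean (log2 fold change −2.29, SE 0.19, limma adjusted p = 4.30e-05). Cd4 was at 13.8 and 11.3 TPM in WT and at 2.14 and 3.16 TPM in cKO libraries, with no overlap (log2 fold change −1.90, SE 0.19, limma adjusted p = 1.05e-04). Clec10a was at 1.40 and 1.81 TPM in WT and at 7.17 and 8.01 TPM in cKO libraries, so that both cKO values were well above both WT values (log2 fold change 1.72, SE 0.26, limma adjusted p = 7.41e-04).

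The other genes were not called in cDC1s. Notch2 was at 50.4 and 64.2 TPM in WT and at 96.3 and 78.4 TPM in cKO libraries, without overlap (log2 fold change 0.60, SE 0.22, limma adjusted p = 0.0563). Clec4a4 was at 0.620 and 1.00 TPM in WT and at 1.40 and 3.86 TPM in cKO libraries, a separation among very low values (log2 fold change 0.92, limma adjusted p = 0.0239). Mgl2 was at 0.50 and 0.57 TPM in WT and at 1.17 and 1.15 TPM in cKO libraries, low values without overlap (log2 fold change 0.49, limma adjusted p = 0.0872). Clec12a, the member with the highest level in cDC1s, was at 183.4 and 219.3 TPM in WT and at 173.1 and 193.2 TPM in cKO libraries, and the groups overlapped (log2 fold change −0.13, SE 0.21). Cd209a, Sirpa and Dtx1 also overlapped between genotypes, with log2 fold changes of 0.56, 0.26 and 0.10.

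The genotype effect in cDC1s minus that in cDC2s was tested directly. Of the 10 genes 0 were called for this difference by limma, where 2.56% of all genes were called, 1.21% higher and 1.35% lower. An unadjusted p under 0.05 was seen for 6 of them, and the share of all genes under it was not taken. The calls over all genes were 138 higher and 154 lower, and 100 and 282 with median-of-ratios scaling. The differences with the lowest adjusted p were those of Clec4a4 (log2 1.69, adjusted p = 0.0189), Esam (−1.12, adjusted p = 0.0214) and Dtx1 (1.30, adjusted p = 0.0296) from limma. Clec4a4 was thus lower in every cKO cDC2 library and higher in both cKO cDC1 libraries, without a call for either effect or for their difference. Esam and Clec4a4 were each called for the difference in some of the other fits, including those without WT cDC1 library 2 (Esam) and without cKO cDC1 library 1 (Clec4a4). For Clec10a the effects in cDC2s (1.55) and cDC1s (1.72) differed by 0.17 (SE 0.33).

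In pDCs 0 of the 8 genes tested were called by limma, where 1.05% of 11299 genes were called, 0.814% higher and 0.239% lower. An unadjusted p under 0.05 was seen for 4 of the 8, and the share of all genes under it was not taken. With the replicate number as a block, Mgl2 was called (adjusted p = 0.00447), where 2.96% of all genes were called. Mgl2 was at 19.0, 19.7 and 20.1 TPM in WT and at 26.1, 28.4 and 33.1 TPM in cKO pDC libraries, all cKO values lying above all WT values (log2 fold change 0.55, SE 0.10, limma adjusted p = 0.0226). Clec10a was at 409.6, 478.6 and 471.7 TPM in WT and at 557.0, 644.5 and 638.9 TPM in cKO libraries (log2 fold change 0.44, limma adjusted p = 0.0309). Its groups did not overlap either, and with the block its adjusted p was 0.00167 at a fold change under the minimum for a call. Cd4 was at 1116, 1037 and 939.6 TPM in WT and at 838.5, 794.5 and 686.1 TPM in cKO libraries (log2 fold change −0.42, limma adjusted p = 0.0491, and 0.00257 with the block). Cd209a was at 412.4, 435.4 and 463.5 TPM in WT and at 352.2, 342.3 and 321.7 TPM in cKO libraries (log2 fold change −0.37, limma adjusted p = 0.0210). All cKO pDC libraries were thus below all WT ones for Cd209a, whereas in cDC2s the cKO libraries had been above the WT ones. Sirpa, Clec12a, Notch2 and Dtx1 overlapped between WT and cKO pDCs.

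Among 45 other genes of the Notch pathway (receptors, ligands, cofactors, targets, and the enzymes that glycosylate or cut the receptors), 36 could be tested in cDCs and 1 was called in cDC2s. That gene, Jag1, a Jagged ligand, had means of 15.5 ± 2.77 TPM in WT and 4.42 ± 0.083 TPM in cKO cDC2s (SD, n = 3 in both), and fell by 1.60 on the log2 scale (SE 0.21, limma adjusted p = 0.00101). The list's median log2 fold change was 0.01 in cDC2s, against −0.03 over all genes. The DNA-binding partner Rbpj had a log2 fold change of 0.03 (limma adjusted p = 0.897), and Hes1, a common Notch target, one of 0.11 (limma adjusted p = 0.685) in cDC2s. In cDC1s 8 of the 36 were called, 2 higher and 6 lower, a share close to the 22.4% of all genes called there, so the count is no result about the pathway. Jag1 fell there too (−2.11), as did Aph1c, a gamma-secretase subunit (−1.47), while Maml3, a coactivator (1.23), and the receptor Notch1 (1.204) rose, with limma adjusted p values of 1.28e-04 to 0.00255. The other 4, all lower, were Poglut1, Notch4, Hes1 (−0.86) and Maml2. Maml3 and Notch1 lost their calls without WT cDC1 library 1 or cKO cDC1 library 1, and Maml3 also without cKO cDC1 library 2. In pDCs 0 of 38 were called by limma, and 7 had an unadjusted p under 0.05.

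Among the other genes listed for the CLEC12A-high type, Cx3cr1, Ccr2 and Csf1r were called higher in both cDC types. Of Cx3cr1, Ccr2, Csf1r, Csf3r and Lyz2, all but Csf3r (4 genes) were called higher in cKO cDC2s, where 3.59% of all genes were, and 3 in cKO cDC1s, where 15.8% were, with list medians of 1.40 and 0.85 on the log2 scale. Lyz2, the lysozyme of myeloid cells, had means of 821.2 ± 216.3 TPM in WT and 2125 ± 281.4 TPM in cKO cDC2s (SD, n = 3 in both), a rise of 1.40 on the log2 scale (limma adjusted p = 0.00288). Csf1r, the M-CSF receptor, rose by 0.94, with means of 156.9 ± 3.56 and 307.6 ± 65.6 TPM (SD, n = 3 in both; limma adjusted p = 0.00326). Cx3cr1 and Ccr2, chemokine receptors, rose by 1.58 and 1.503 in cDC2s and by 1.39 and 2.10 in cDC1s, and Csf1r by 0.85 in cDC1s. Unlike the calls of Esam, Cd4 and Clec10a, these were lost in some fits. Of the 10 fits that left out 1 library, Ccr2 lost its cDC2 call in 7, Cx3cr1 and Csf1r in 4 each and Lyz2 in 1, with adjusted p values up to 0.0340. Cx3cr1 lost its cDC1 call in 17 of all 21 alternatives. Lyz2 and Csf3r were not called in cDC1s. There Lyz2 was lower in cKO libraries, with means of 422.7 ± 166.3 TPM in WT and 284.0 ± 5.95 TPM in cKO (SD, n = 2 in both). Csf3r had means of 1.70 TPM in WT and 1.72 TPM in cKO cDC1s. Of the other genes of the ESAM-high type, Flt3, the receptor that drives DC growth, and Tbx21, a transcription factor, 0 were called by limma in cDC2s, where Flt3 had an unadjusted p under 0.05 (log2 fold change −0.45, limma adjusted p = 0.0161), and 0 in cDC1s, where 0 had one.

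Among 14 transcription factors of cDC2s, 2 were called in cDC2s, both lower, where 7.15% of all genes were called and 3.56% were called lower. Irf4, which cDC2s need for migration and priming, fell by 1.08 on the log2 scale, with means of 65.1 ± 16.9 TPM in WT and 29.9 ± 3.93 TPM in cKO cDC2s (SD, n = 3 in both; limma adjusted p = 0.00400), and lost its call in 3 fits that left out 1 of the cKO cDC2 libraries in turn. Ikzf3, an Ikaros family factor, fell by 1.46, with means of 6.19 ± 1.87 and 1.58 ± 0.32 TPM (SD, n = 3 in both; limma adjusted p = 0.00118). In cDC1s, where 22.4% of all genes were called, Relb (−1.56) and Prdm1 (−0.81) fell, with limma adjusted p values of 5.30e-04 and 0.00335, and Prdm1 lost its call in 4 fits that left out 1 library. In pDCs 0 of 13 were called by limma, and 3 had an unadjusted p under 0.05.

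Of 27 relatives of the lectin and SIRP members, 20 could be tested in cDCs. In cDC2s Sirpb1c alone was called (7.15% of all genes were), rising by 0.87 on the log2 scale, with means of 58.4 ± 2.49 TPM in WT and 107.2 ± 3.99 TPM in cKO libraries (SD, n = 3 in both; limma adjusted p = 3.36e-04). It belongs to a family of close copies, so its value is uncertain. In cDC1s 4 of the 20 were called, close to the share of all genes (22.4%). There Clec4b1 (1.25) and Clec4a2 (1.16) rose and Clec9a (−1.33), a cDC1 marker, and Clec4n (−1.04) fell, with limma adjusted p values of 0.00209 to 0.00889, and each lost its call in at least 3 fits that left out 1 library. In pDCs 2 of 14 were called, where 1.05% of all genes were. There Cd209c (−0.83) and Cd209d (−0.55), relatives of Cd209a, fell with limma adjusted p values of 0.00798 and 0.00367, and each lost its call in 5 of 6 such fits. As with Clec4a4 and Clec4a2, reads of near relatives may be shared.

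**Figure D4:**
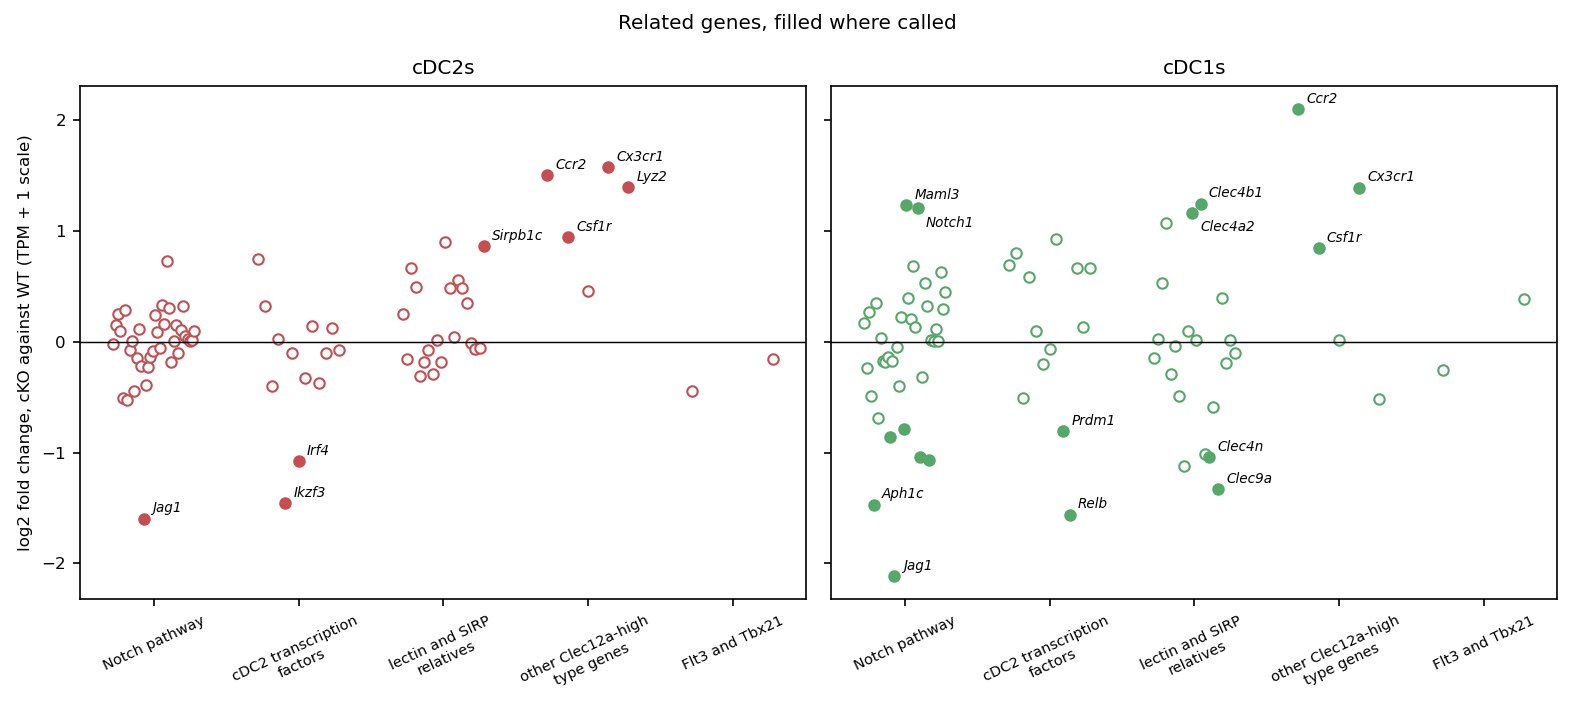
Log2 fold change of cKO against WT on the log2(TPM + 1) scale in cDC2s (left) and cDC1s (right) for tested genes of 5 related lists, with 1 symbol per gene in alphabetical order within a list, filled where called; up to 4 called genes per list are named. The genes of the CLEC12A-high type lie mostly above 0 on both sides, and Jag1 is the lowest gene of the Notch pathway on both.

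Markers of other cells were read beside these changes. The pDC marker sum was 130.1 to 164.9 TPM in WT and 195.5 to 229.5 TPM in cKO cDC2s, and 153.4 to 169.5 TPM in WT and 254.4 to 257.6 TPM in cKO cDC1s, and pDC libraries, in their own table, held 409.6 to 644.5 TPM of Clec10a. Of the 8 markers Cox6a2 alone was called higher in cDC2s, from 1.75 to 3.62 TPM in WT to 30.9 to 41.9 TPM in cKO libraries, and it also rose in pDCs. Siglech, the gene of the pDC gate, was at 5.16 to 7.11 TPM in WT and 3.97 to 9.60 TPM in cKO cDC2s, which overlap. In cDC1s Siglech was at 3.21 to 3.71 TPM in WT and 7.91 to 8.76 TPM in cKO libraries, without overlap. Bst2 was higher in every cKO cDC2 library without a call (94.47 to 121.56 TPM in WT, 128.26 to 157.32 TPM in cKO). The difference in the pDC marker sum in cDC2s was 0.357% of the sum in cKO pDCs. That in Clec10a was 4.72% and that in Mgl2 32.7% of the level in cKO pDCs. In cDC1s the same shares were 0.511%, 0.976% and 2.14%. These shares cross separately normalized tables and are descriptions only, and whether pDC RNA had a part in the differences was not tested. Of the 7 pDC markers tested, 5 were called in cDC1s, 3 higher (Cox6a2, Tcf4 and Bst2) and 2 lower (Pacsin1 and Ccr9). The cDC1 marker sum was lower in cKO cDC1s (5157 to 5189 TPM) than in WT cDC1s (5643 to 5789 TPM), where 3 of its 10 genes (Itgae, Cadm1 and Clec9a) were called lower. Xcr1 and Cd8a were also lower without overlap. Going the other way without overlap or a call were Irf8, Cd24a and Tlr3. Irf8 was at 1720 to 1754 TPM in WT and 1855 to 1928 TPM in cKO cDC1s, and Cd24a at 485.9 to 608.5 and 682.0 to 692.5 TPM. Batf3 and Naaa overlapped, so the list did not move in a single direction.

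The 14 monocyte and macrophage markers summed to 591.9 to 1025 TPM in WT and 702.9 to 1121 TPM in cKO cDC2s, and these ranges overlap. Of the 14, 2 were called higher in cKO cDC2s, Ace (log2 fold change 1.83) and Fcgr1 (1.15). Without a call, Ly6c2 was higher in every cKO cDC2 library (8.61 to 15.99 TPM in WT, 18.49 to 30.03 TPM in cKO). Adgre1 was lower in every one (179.55 to 187.35 TPM in WT, 146.93 to 152.08 TPM in cKO), and the remaining markers overlapped. In cDC1s the sum was lower in cKO libraries (125.2 to 127.0 against 200.6 to 245.4 TPM). The 9 B cell markers summed to 53.3 to 68.4 TPM in WT and 52.5 to 55.3 TPM in cKO cDC2s, where Cr2 (−1.40) and Ms4a1 (−1.46) were called lower. T cell markers, which bear on Cd4, summed to 4.62 to 7.21 TPM in WT and 4.89 to 7.09 TPM in cKO cDC2s, against 107.6 to 365.6 TPM of Cd4 itself. In cDC1s they summed to 1.77 to 1.96 TPM in WT, with Themis at 0, and to 3.43 to 3.90 TPM in cKO libraries. Most of that difference was in Cd6 (0.48 to 0.58 against 2.24 to 2.54 TPM), while Cd3d was at 0.35 to 0.60 TPM in WT and 0.24 to 0.27 TPM in cKO cDC1s. The 9 neutrophil markers summed to 8.41 to 34.4 TPM in WT and 20.0 to 81.0 TPM in cKO cDC2s, with Ly6g at 0 in WT cDC2s, and in cDC1s to 1.81 to 16.95 TPM in WT and 21.6 to 40.5 TPM in cKO libraries. The 5 NK cell markers summed in cDC2s to 1.5 to 4.99 TPM in WT and 1.74 to 3.04 TPM in cKO libraries. In pDCs the monocyte and macrophage sum was 4896 to 5555 TPM in WT and 5786 to 5898 TPM in cKO libraries. Most of it was Ly6c2, at 4771 to 5456 TPM in WT and 5574 to 5702 TPM in cKO libraries. Hmox1 was at 28.7 to 43.4 and 51.4 to 77.7 TPM, and C1qb at 11.3 to 22.2 and 24.1 to 42.9 TPM. C1qa overlapped between genotypes (14.0 to 24.5 and 22.8 to 48.7 TPM), as did C1qc, Spic, Cd5l, Ace and Fcgr4, among others. The neutrophil sum there was 8.64 to 28.82 TPM in WT and 28.83 to 131.1 TPM in cKO pDCs, so its ranges all but met. Limma called 0 of the 13 monocyte and macrophage markers tested, 6 with an unadjusted p under 0.05. It called 0 of the 4 neutrophil markers tested, 2 with such a p. The part of the T cell, cDC1, pDC, monocyte, B cell and neutrophil markers in the results for the 10 genes was not tested.

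The genes whose levels were most like that of Esam over the 10 cDC libraries were Slc44a1, Mical3 and Gbp8, with Pearson r of 0.994, 0.992 and 0.991 on the log2(TPM + 1) scale. Each had its highest mean in WT cDC2s and its lowest in cKO cDC1s, as Esam did; Gbp8, for example, had means of 125.9 TPM and 5.03 TPM in these groups. For Clec12a they were Olfm1, Khk and Npc2, with r of 0.982, 0.981 and 0.981. Olfm1 had means of 180.7 and 158.2 TPM in WT and cKO cDC1s and of 15.97 and 44.0 TPM in WT and cKO cDC2s. These values describe 10 libraries of 4 groups, and most of the likeness comes from differences between the groups that the libraries share.

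By RefSeq (GRCm38.p6) the genes lie at chr2:129591042-129632228 (Sirpa), chr8:3743395-3748984 (Cd209a), chr9:37528089-37538319 (Esam), chr6:124864693-124888247 (Cd4), chr6:122990367-123024421 (Clec4a4), chr3:98013538-98150367 (Notch2), chr5:120680203-120711867 (Dtx1), chr6:129349783-129365303 (Clec12a), chr11:70166623-70170836 (Clec10a) and chr11:70130125-70137542 (Mgl2). Mgl2 overlaps Gm12311 and Notch2 overlaps Gm40103, and the sources do not state whether the counting used strand.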

How the data were processed

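Total RNA of sorted splenic DCs was made into mRNA libraries and read as single-end 50-base reads (BGISEQ-500). Per the labels and the study's methods, the authors filtered reads with SOAPnuke, mapped them to mm10 with HISAT2 2.0.4 and, for expression, to a transcript reference with Bowtie2 2.2.5, and estimated levels with RSEM 1.2.12; the release of that reference is not given in the sources used here. The authors deposited TPM values and FPKM values in separate tables for pDCs and cDCs; 0 value columns were left unmapped. Neither unit is a count, so limma 3.58.1 (R 4.3.3) replaced the authors' count model, with their thresholds.

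Gene IDs were matched to RefSeq symbols (17667 of 17721 in the cDC table, 17079 of 17128 in the pDC table). Genes whose mean reached 1 TPM were fitted on log2(TPM + 1), a scale that understates changes of low genes, with lmFit and eBayes with trend. The 10 cDC libraries shared 1 fit of 4 group means, and the 6 pDC libraries had their own. All tests were two-sided, and p values were adjusted over all genes tested (Benjamini-Hochberg). The fits were tested on simulated data with 200 changed genes. Depth was estimated from the spacing of low FPKM values. Sequence sharing was taken from GENCODE M21 transcripts. Plots used Python 3.11.15 and matplotlib 3.10.9.

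Replicate numbers came from the titles. Same-numbered pDC libraries deviated from their group means together (r = 0.310, 0.392 and 0.206 across genes), so the numbers were taken to pair them and the blocked values are given. The labels state no shared day or litter, and differently numbered libraries were not compared in this way. This pairing was read from the same expression values, so the blocked p values are not independent of that choice. The 10 genes and all lists were chosen with earlier results of these data known. Besides the 10 genes and Trim33, up to 4 called genes of each related list with the largest changes were named, and the 3 genes most like Esam and Clec12a; Rbpj, Hes1, Flt3, Tbx21, Csf3r, Poglut1, Notch4, Maml2 and single markers were named outside that rule, after their values were seen. A gene counted in these lists is not reported here by name or in the plots. Alternatives were another pseudocount, no filter, FPKM, other scalings, a replicate block, no trend, other thresholds, the compared groups alone and leaving out each library.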

Additional observations from a re-analysis of the deposited data

Results flagged for a closer look

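For 2 related genes the genotype effect differed between cDC1s and cDC2s by the limma test of the difference itself. Notch4, a Notch receptor, fell in cDC1s from a mean of 69.8 to 33.4 TPM and was at 3.32 and 4.33 TPM in WT and cKO cDC2s, a difference between the effects of −1.34 on the log2 scale (SE 0.22, limma adjusted p = 0.00590) that lost its call in 10 of 19 alternatives, 8 of them leaving out 1 library (each but WT cDC2 library 3 and cKO cDC2 library 2). Sirpb1c, a SIRP relative, rose in cDC2s by 0.87 and was at no more than 0.15 TPM in WT cDC1s and listed at 0 in cKO cDC1s, a difference of −0.97 (SE 0.15, limma adjusted p = 0.00399) that was lost in 8 of 19. No group held 4 or more libraries, so single libraries were not tested as outliers.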

How the results depend on the processing

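Of 58 values of the 10 genes in 6 comparisons, 36 kept their sign and call under every alternative run, and 10 changed sign, all of them without a call. The number of members called was 3 to 6 in cDC2s (5 as deposited) when 1 library was left out, with 3 without cKO cDC2 library 3 and 6 without either cKO cDC1 library. In pDCs 1 was called, in place of 0, with the replicate block and 1 at an adjusted p of up to 0.05. For the difference between the effects in cDC1s and cDC2s 1 was called with a pseudocount of 0.1, 1 with median-of-ratios scaling, 3 at an adjusted p of up to 0.05, and 0 to 1 without 1 library. The block, which the replicate numbers support in pDCs only, changed the count of members by no more than 1 elsewhere. In cDC1s, where same-numbered libraries deviated in opposite directions (r = −0.233), a crossed pairing added after seeing the data called 2156 genes, against 2290 with the numbered block and 2555 without.

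Changes of sign under another scaling were seen for Dtx1 in cDC1s (−0.0069, median-of-ratios), Sirpa in pDCs (0.0179 with FPKM, 0.0272 with median-of-ratios), Notch2 in pDCs (0.0033 with median-of-ratios, 0.002 with quantile normalization) and Notch2 between WT cDC2s and WT cDC1s (−0.0637, median-of-ratios). For the difference between the effects they were seen for Sirpa (−0.0603 with median-of-ratios, −0.0462 with quantile normalization) and Clec10a (−0.15 with FPKM, −0.0065 with quantile normalization). Leaving out 1 library gave ranges of −0.23 to 0.0775 for Notch2 in cDC2s, −0.15 to 0.67 for Sirpa and −0.11 to 0.31 for Dtx1 in cDC1s, −0.0363 to 0.0027 for Sirpa, −0.0893 to 0.37 for Dtx1 and −0.15 to 0.0888 for Notch2 in pDCs, and −0.042 to 0.30 for Notch2 between WT cDC2s and WT cDC1s. For the difference between the effects the ranges were −0.27 to 0.55 for Sirpa, −0.21 to 0.88 for Cd209a and −0.0605 to 0.34 for Clec10a. The cause of these changes was not tested.

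Counts over all genes moved more. In cDC2s 816 genes were called, against 444 from the libraries of both groups alone, 293 at a fold change of at least 1, 1424 at an adjusted p of up to 0.05, and 316 to 907 without 1 library. In cDC1s 2555 were called, against 1000 and 3497 at the same thresholds and 800 to 2888 without 1 library. In pDCs 119 were called, against 335 with the block, 24 without a filter, 56 without a trend, 366 at an adjusted p of up to 0.05, and 12 to 97 without 1 library. For the difference between the effects 292 were called, against 145 with the block, 1215 at an adjusted p of up to 0.05, and 77 to 282 without 1 library. Between WT cDC2s and WT cDC1s 3612 were called, against 1920 at a fold change of at least 1, and between cKO cDC2s and cKO cDC1s 3230, against 1647 at that fold change and 1997 and 2126 without cKO cDC1 library 1 or 2. With 2 cDC1 libraries a group and values without counts, small changes of genes near the floor could not be resolved.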
